A study of Oryza sativa with 51 samples.

Results

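These results concern 287 stretches of the rice genome that lie near an annotated gene start and carried less monoubiquitinated histone H2B (H2Bub1) under moderate drought than under normal water. They were taken from the 1395 regions of the authors' deposited moderate drought table as those annotated within 1 kb of a start whose log2 H2Bub1 concentration was lower in drought, which left 287 of 420 start-proximal regions. The other 133 start-proximal regions gained H2Bub1. The 287 regions are nearest to 282 genes, all of which were found among the 55986 genes of the RNA tables. The regions were thus chosen by their H2Bub1 values in moderate drought and normal water, and those values are given as a description with no test.

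The plants were wild-type Zhonghua11, a japonica rice cultivar, grown in soil to the 4-leaf stage and either watered normally or dried slowly. Drying to about 20% relative soil water was called moderate drought, and drying to about 10% severe drought. The series holds 51 samples, of which 9 are the RNA libraries used here, 3 for each of normal water, moderate drought and severe drought. Chromatin was immunoprecipitated with an anti-H2Bub1 antibody and sequenced, and for each region the authors deposited 1 combined value per condition. A separate set of leaf samples in the Zhonghua11 background compared wild type with an osbzip46 mutant, altered in an abscisic acid-responsive transcription factor gene, under normal water and drought. The labels give no tissue for the Zhonghua11 libraries and no plant or culture behind a replicate, so a p-value reflects the spread among libraries alone, and part or all of that spread may be technical.

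H2Bub1 is a single ubiquitin attached to histone H2B by E3 ligases that in plants are called HUB1 and HUB2, and ubiquitin proteases remove it again. In plants and other eukaryotes the mark lies over the bodies of transcribed genes, mostly downstream of the start, and is placed during transcription elongation. In rice, abscisic acid carries much of the drought response through receptors, type 2C phosphatases, kinases and bZIP factors.

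The RNA libraries held between 8.30 and 10.7 Gb of aligned bases, as the deposited coverage implies, with 19185 to 20012 genes at or above 1 unit of TPM (a read share corrected for transcript length). Of the libraries, 8 correlated with another library at 0.991 or more on the log2(TPM + 1) scale, whereas replicate 3 of severe drought reached no more than 0.955 with any other. The main severe drought counts, and the fold changes of genes named for severe drought, are given with and without that library. The spread was estimated over all 9 libraries in 1 fit, so leaving it out also moved the moderate drought calls, as given at the end. Summed RNA of 4 genes listed as leaf markers ran from 17290 to 22890 TPM under normal water, from 5142 to 6684 TPM under moderate drought and from 2942 to 6809 TPM under severe drought. Summed RNA of 3 genes listed as root markers stayed between 14.0 and 23.3 TPM in every library. For 2 genes listed as meristem markers the sum was at most 0.0312 TPM in any library. All these markers were listed from general knowledge, not from the labels. The part of any shift in cell makeup in the results below was not tested, and in whole-tissue RNA fewer cells of a type and less RNA per cell cannot be told apart.

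Losses of H2Bub1 near the start were mostly modest. In the authors' deposited table the 287 regions had a log2 H2Bub1 level between 5.46 and 9.47 under normal water, with a median of 6.97, and between -0.20 and 8.0 under moderate drought, with a median of 5.72. The deposited difference had a median of -1.25 and ran from -7.48 to -1.0, with 204 regions losing between 1 and 1.5 on the log2 scale, 38 losing at least 2 and 10 at least 3. The table holds only regions with a difference of at least 1.0 in size and a false discovery rate (FDR) of at most 0.0498, so the upper end of this range is set by the authors' threshold. An FDR under 0.01 was listed for 208 of the 287 regions, which is 72.5%.

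**Figure D1:**
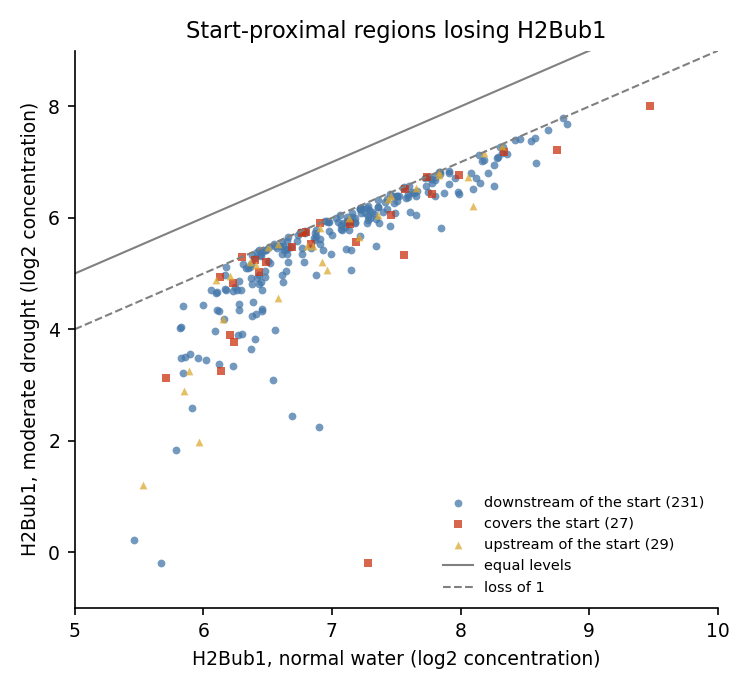
Deposited log2 H2Bub1 concentration of the 287 regions under normal water (horizontal axis) and moderate drought (vertical axis), 1 point per region, with colour and shape giving the place relative to the gene start. Most points lie just under the dashed line that marks a loss of 1, and the regions of largest loss had normal levels below 7.28 or at it.

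Just inside the rule, the regions at LOC_Os06g06720, LOC_Os07g29240 and LOC_Os12g05980 each had a deposited difference of -1.0. Just outside it, LOC_Os03g21980, LOC_Os03g18840 and LOC_Os03g55330 had deposited gains of 1.01, 1.02 and 1.03. No start-proximal region of the deposited table lay between those values.

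Position was uneven within the 1 kb window. All regions were 500 bases wide in the deposited table. Of the 287, 231 regions (80.5%) lay downstream of the start, 27 (9.41%) covered it and 29 (10.1%) lay upstream. Region centres had a median position 864 bases downstream of the start. As a share of each gene's own length, the median position was 25.4%. The 133 gaining regions had a median centre 716 bases downstream, with 115 (86.5%) downstream of the start. Chromosome 3 carried 45 of the losing regions (15.7%) and chromosome 9 carried 14 (4.88%), beside 13.1% and 5.43% of all tested genes. Another gene's start lay within 1 kb for 17 regions, and 9 overlapped another gene model. Coordinates are those of the authors' table, whose genome build no label or header states.

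**Figure D2:**
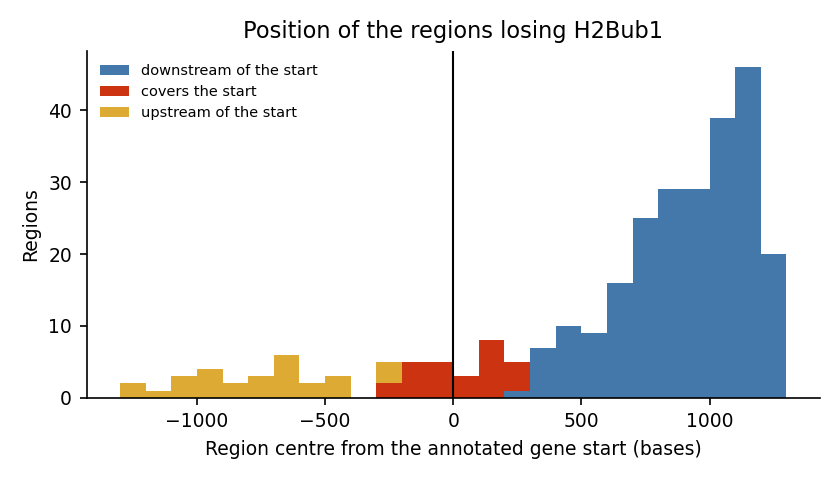
Number of losing regions in bins of distance between the region centre and the annotated gene start (bases, negative upstream), coloured by place. The counts rise downstream, with a median centre at 864 bases, and the annotation within 1 kb limits how far the distribution can reach.

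At 5 genes there were 2 losing regions each, and no gene had more. At LOC_Os03g27790 on chromosome 3, the deposited table gave a difference of -2.89 for the region at 15937227 to 15937726, which covers the start, and -1.93 for the one at 15936147 to 15936646, downstream. At LOC_Os05g32110, the region covering the start (chromosome 5, 18724066 to 18724565) had a deposited difference of -2.59 and its downstream neighbour -1.47. At LOC_Os01g11054, the deposited differences were -2.46 over the start and -1.80 downstream. The start-covering region of LOC_Os02g26560 had a deposited difference of -2.32 and its upstream region -1.31. At LOC_Os03g47070, neither region covered the start, and the deposited differences were -1.76 and -1.72. In all 4 genes with a region over the start, that region had the larger listed loss. The deposited table ties the paired regions of LOC_Os01g11054 to models of 2517 and 4566 bases and those of LOC_Os05g32110 to models of 2981 and 2454 bases, so the start there is not the same position for both. The downstream region of LOC_Os03g27790 lies 974 bases from the start of a 574-base model, past its end.

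RNA was measured in other libraries than H2Bub1 and was not used to choose the regions. Of the 282 genes, 274 passed the filter of at least 1 TPM in at least 3 libraries, 269 of them with at least 1 TPM in all 9, and 3 passed through 1 condition alone. The 8 genes that did not pass, LOC_Os08g01274 and LOC_Os03g27790 among them, stayed at or below 0.977 TPM in every library. Normal-water RNA of the 282 genes had a median of 20.2 TPM, compared with 11.7 TPM over all 20642 tested genes. Under moderate drought those medians were 16.1 and 14.2 TPM, and under severe drought 16.2 and 14.6 TPM.

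Under moderate drought, RNA fell at 130 of the 274 tested genes nearest to a losing region (47.4%) and rose at 27 (9.85%), so that 57.3% were called in either direction. Across all tested genes 18.9% fell, 39.4% rose and 58.3% were called in either direction, by limma with Benjamini-Hochberg adjustment at 0.05. The median log2 fold change was -0.31 for the genes near a losing region and 0.20 for all tested genes. RNA fell by at least 1 on the log2 scale at 41 of the genes, which is 15.0%, compared with 7.19% of all tested genes. All 3 drought libraries lay below all 3 normal libraries at 153 of the genes and above them at 40, where all tested genes gave 24.7% and 48.3%.

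The split moved with how the libraries were scaled. Quantile normalization moved the median of all tested genes from 0.20 to -0.01 on the log2 scale, and median-of-ratios scaling also to -0.01. With quantile normalization 163 of the genes near a losing region fell and 11 rose, beside 28.0% and 27.6% of all tested genes. With median-of-ratios scaling 167 fell and 11 rose, beside 28.2% and 27.8%. The median for these genes was then -0.51 and -0.52.

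Under severe drought, RNA fell at 145 of the 274 genes and rose at 27, beside 20.6% and 42.1% of all tested genes (62.7% in either direction). All 3 severe drought libraries lay below all normal ones at 156 genes and above them at 30, where all tested genes gave 23.3% and 45.3%. The median log2 fold change was -0.36, compared with 0.22 over all tested genes, and 51 genes fell by at least 1, where 7.93% of all tested genes did. Without replicate 3 of severe drought, 151 fell and 30 rose with a median of -0.31, beside 22.6% and 44.4% of all tested genes (67.1% in either direction). Without it 42 genes fell by at least 1, beside 7.32% of all tested genes. The remaining 2 severe drought libraries lay below all normal ones at 173 genes and above them at 49, beside 28.2% and 51.4% of all tested genes. With quantile normalization 188 fell and 7 rose, beside 30.6% and 28.6%, and with median-of-ratios scaling 182 fell and 10 rose, beside 29.6% and 30.1%. Without replicate 1 of normal water the number that rose was 17, beside 36.1% of all tested genes in the same fit. Both drought comparisons share the 3 normal libraries.

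Between severe and moderate drought, limma called 0 of the 274 genes and 0.0145% of all tested genes. An unadjusted p under 0.05 was reached by 40 of the 274, beside 2582 of all 20642 tested genes. Without replicate 3 of severe drought 0 genes were called again, beside 0.0488% of all tested genes. The median log2 difference of the 274 genes, severe minus moderate, was -0.08 with that library and -0.01 without it. Over all tested genes it was -0.0021 with that library.

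**Figure D3:**
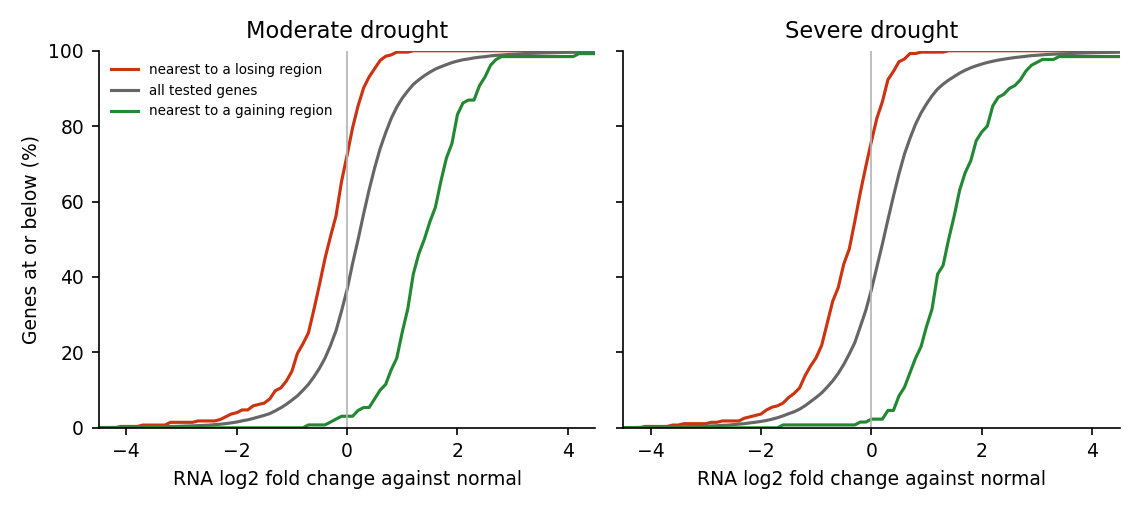
Cumulative share of genes (vertical axis, percent) at or below each RNA log2 fold change against normal water (horizontal axis), for genes nearest to a losing start-proximal region, all tested genes and genes nearest to a gaining start-proximal region, in moderate (left) and severe (right) drought. The medians in moderate drought are -0.31, 0.20 and 1.39 in that order.

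Of 130 tested genes near a gaining start-proximal region, 119 rose and 0 fell under moderate drought by limma, with a median log2 fold change of 1.39. An unadjusted p under 0.05 in either direction was reached by 121 of them, beside 12968 of all 20642 tested genes. Genes near regions that lost H2Bub1 between 1 and 3 kb from the start had 307 of 673 falling (45.6%), 85 rising (12.6%) and a median of -0.29. Both losing sets share 10 genes. No test of the differences between these sets was made.

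The regions were also ranked by deposited loss, the value that chose them, and cut into 4 groups, to be read beside the 18.9% of all tested genes that fell in moderate drought. As a description, the group of largest loss (-7.48 to -1.56) had RNA falling at 48 of 66 tested genes under moderate drought and rising at 2, with a median of -0.63. In the next group 30 of 69 fell and 9 rose, and in the third 31 of 70 fell and 11 rose. In the group of smallest loss (-1.11 to -1.0) 21 of 71 fell and 5 rose, with a median of -0.11. In the middle groups the share that fell was 43.5% and 44.3%, and no difference between the 4 groups was tested. Across 278 regions with a tested gene, the deposited H2Bub1 difference and the RNA log2 fold change in moderate drought had a Pearson's r of 0.436 and a Spearman's rho of 0.30, as a description across regions that come from the same combined libraries. Without the 10 regions of largest loss, r was 0.247 and rho 0.256 over 268 regions. The H2Bub1 level under normal water had an r of 0.33 with log2(TPM + 1) under normal water, and of 0.008 with the RNA fold change.

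**Figure D4:**
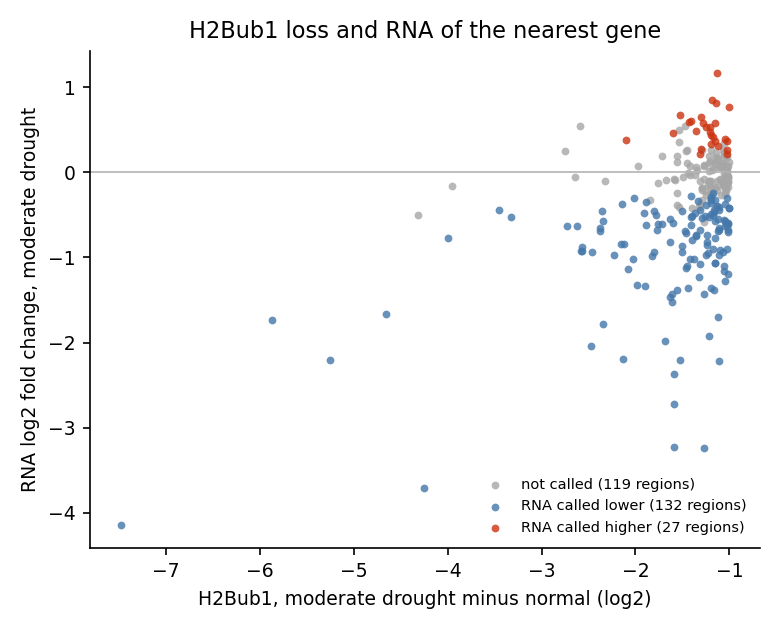
Deposited H2Bub1 difference, moderate drought minus normal water (horizontal axis, log2), and RNA log2 fold change of the nearest gene in moderate drought (vertical axis), 1 point per region with a tested gene, coloured by the RNA call. Of the 278 points, 132 are called lower, 27 higher and 119 not called, and the 10 points of largest loss lie below 0.

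The genes were also split into 4 groups by mean TPM over all 9 libraries, a split chosen after the data were seen and with no test between groups. The top group (39.1 to 510.2 TPM) had 46 of 69 genes falling (66.7%) and 5 rising under moderate drought. Among all 4588 tested genes of the same range 19.9% fell. In the lower 3 groups between 37.7% and 47.1% of the genes near a losing region fell, where the matching ranges of all tested genes gave 15.4% to 19.9%. By place, RNA fell in moderate drought at 14 of 25 tested genes whose region covers the start. With a downstream region it fell at 110 of 228, and with an upstream region at 8 of 25. Of all tested genes 18.9% fell.

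The region of largest loss covers the start of LOC_Os03g14915 (chromosome 3, 8132056 to 8132555). The deposited table gave a log2 H2Bub1 level of 7.28 under normal water and -0.20 under moderate drought. That value is the lowest drought level of the whole table, and 12 regions share it, so the size of such a loss rests on how the authors' table treats nearly empty regions. RNA of this gene was 70.8, 62.8 and 70.8 TPM under normal water, 3.34, 2.07 and 3.46 TPM in moderate and 1.77, 3.28 and 3.64 TPM in severe drought. No drought library came near a normal one, and the log2 fold change was -4.14 ± 0.21 (SE, n = 3 per group, limma adjusted p = 2.41e-06) in moderate drought, the largest fall among these genes.

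The second-largest loss lay downstream of the start of LOC_Os04g46079 (chromosome 4, 27315613 to 27316112), at a deposited difference of -5.87. The moderate drought level there was again the lowest value, -0.20, so the same limit holds for the size of this loss. RNA of LOC_Os04g46079 read 10.2, 8.73 and 7.92 TPM under normal water, 2.18, 1.69 and 2.12 TPM in moderate and 2.09, 1.81 and 6.67 TPM in severe drought. Moderate drought libraries were all lower than normal ones (-1.73 ± 0.34, adjusted p = 0.00219), while replicate 3 of severe drought approached the normal range. At LOC_Os02g39140 (chromosome 2, 23643191 to 23643690) the deposited difference was -5.25, with a moderate drought level of 0.21, near that lowest value. Its RNA was 22.9, 21.0 and 16.1 TPM under normal water, 3.74, 2.93 and 3.86 TPM in moderate and 2.95, 3.67 and 2.34 TPM in severe drought. Every drought library was below every normal one, with a log2 fold change of -2.21 ± 0.17 in moderate drought.

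LOC_Os08g09840 (chromosome 8, 5685775 to 5686274; deposited difference -4.66) had RNA at 40.5, 36.4 and 44.0 TPM under normal water and, in moderate drought, 13.8, 8.49 and 14.7 TPM. LOC_Os01g66890 (chromosome 1, 38844607 to 38845106; deposited difference -4.25) dropped from 162, 166 and 152 TPM to 13.0, 8.02 and 13.7 TPM. Both fell without overlap between the groups, by 1.66 and 3.71 on the log2 scale. LOC_Os08g29570 (-4.0 in the deposited table) fell by 0.77 and LOC_Os11g29700 (-3.32) by 0.53.

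Of the 10 regions of largest loss, 3 stood beside small or unstable RNA differences. LOC_Os03g02514, with a region upstream of the start (chromosome 3, 924712 to 925211) and a deposited difference of -4.32, had 83.0, 81.0 and 77.5 TPM under normal water and, in moderate drought, 59.0, 55.8 and 54.5 TPM. Those libraries did not overlap, but the gene did not pass (-0.51 ± 0.22, adjusted p = 0.0765), and replicate 3 of severe drought read 93.7 TPM where the other replicates read 46.2 and 53.3 TPM. Without that library, the same difference passed. LOC_Os06g41480 (deposited difference -3.95) read 2.85, 2.65 and 3.98 TPM under normal water and, in moderate drought, 3.02, 2.43 and 2.59 TPM, which overlap. LOC_Os01g48390 (deposited difference -3.45) passed at -0.45 ± 0.15 (adjusted p = 0.0262) but lost the call without any 1 normal library and without moderate replicate 1 or 3.

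Some of the largest RNA falls lay beside ordinary H2Bub1 losses. LOC_Os09g15810 had a deposited H2Bub1 difference of -1.59 and RNA at 401, 380 and 400.0 TPM under normal water, 44.4, 38.1 and 41.2 TPM in moderate and 44.6, 45.9 and 58.8 TPM in severe drought. Its normal and drought libraries were far apart (-3.23 ± 0.11, adjusted p = 5.94e-07). LOC_Os08g37940, at a deposited difference of -1.27, read 174, 174 and 149 TPM under normal water and, in moderate drought, 19.4, 13.0 and 18.1 TPM. LOC_Os06g43800 (-1.59 in the deposited table) read 326, 316 and 352 TPM and then 65.3, 49.5 and 77.7 TPM. LOC_Os02g47560 (-1.59) fell by 2.72 and LOC_Os07g05040 (-1.11) by 2.22 on the log2 scale, each without overlap between groups.

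RNA rose at a minority of these genes, and by less. The largest rise was at LOC_Os01g08320 (deposited H2Bub1 difference -1.13), whose RNA went from 8.68, 7.73 and 10.3 TPM under normal water to 19.0, 19.3 and 25.4 TPM under moderate drought and 22.5, 22.9 and 27.7 TPM under severe drought. Its 6 drought libraries were all above the 3 normal ones (1.16 ± 0.15, adjusted p = 0.000183), and it was the only one of the genes called higher by at least 1. LOC_Os10g35010 (-1.14 in the deposited table) rose from 39.1, 36.5 and 35.9 TPM to 66.9, 67.0 and 64.0 TPM. LOC_Os10g22330 (-1.43) rose from 23.2, 25.04 and 25.3 TPM to 37.9, 36.9 and 37.3 TPM under moderate drought and read 43.5, 43.3 and 46.3 TPM under severe drought. The other 5 of the 8 largest rises in moderate drought, LOC_Os08g12780, LOC_Os02g29530, LOC_Os03g02720, LOC_Os08g06200 and LOC_Os03g56380, had log2 fold changes between 0.58 and 0.85. Of these, LOC_Os03g56380 did not pass in severe drought, with 7.92, 7.70 and 6.27 TPM beside an overlapping 7.42, 6.27 and 6.86 TPM under normal water (0.08 ± 0.11, adjusted p = 0.571; without replicate 3 of severe drought 0.17 ± 0.10, adjusted p = 0.168).

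**Figure D5:**
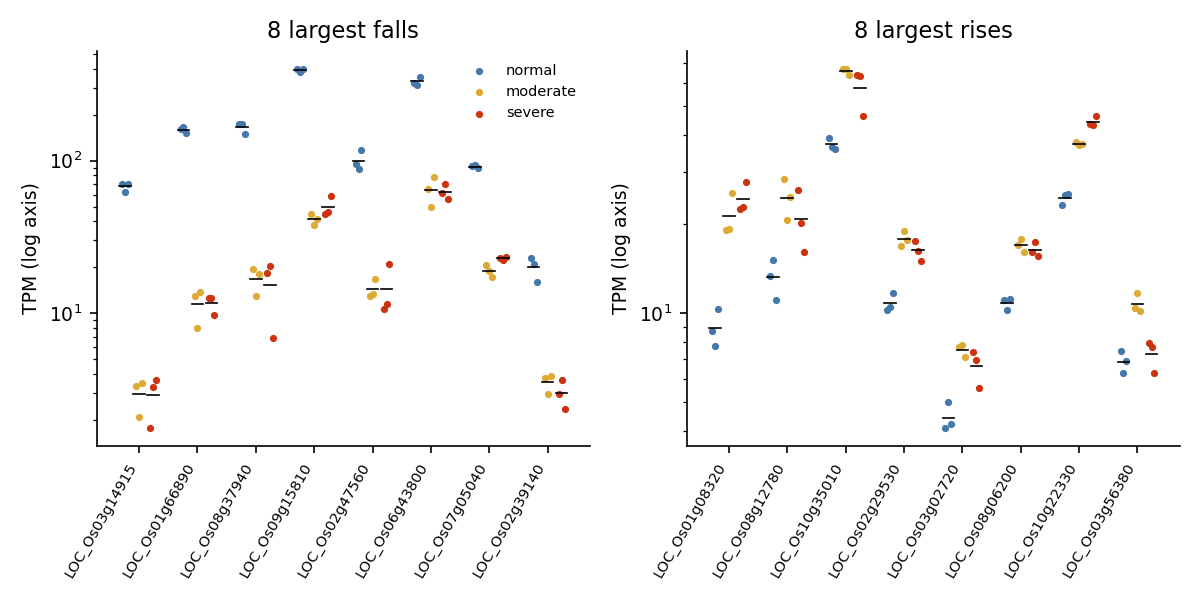
RNA level (TPM, log axis) in each of the 9 libraries for the 8 genes with the largest falls (left) and the 8 with the largest rises (right) in moderate drought, with points for libraries coloured by condition and bars for the mean of 3. The falls reach -4.14 on the log2 scale at LOC_Os03g14915, and the rises reach 1.16 at LOC_Os01g08320.

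Severe drought added 4 further falls and 4 further rises under the same rule for naming genes. LOC_Os03g17600 (deposited moderate drought H2Bub1 difference -2.47) read 297, 286 and 305 TPM under normal water and 56.1, 63.1 and 66.3 TPM under severe drought (-2.24 ± 0.10, adjusted p = 1.17e-06). Its H2Bub1 region has a deposited FDR of 0.0457, and another gene's start lies within 1 kb of that region. LOC_Os04g39140, LOC_Os05g31160 and LOC_Os09g36240 fell by 2.19, 1.96 and 1.93 on the log2 scale. Rises were smaller, at 0.64 for LOC_Os07g26520, 0.48 for LOC_Os09g32810, 0.48 for LOC_Os03g46681 and 0.47 for LOC_Os02g20280. Without replicate 3 of severe drought all 8 still passed. The falls were then -2.30 at LOC_Os03g17600, -2.19 at LOC_Os04g39140, -1.86 at LOC_Os05g31160 and -1.59 at LOC_Os09g36240. The rises were 0.64 at LOC_Os07g26520, 0.49 at LOC_Os09g32810, 0.46 at LOC_Os03g46681 and 0.44 at LOC_Os02g20280. Under quantile normalization LOC_Os07g26520 (0.38) and LOC_Os03g46681 (0.20) did not pass. LOC_Os02g20280 has its H2Bub1 region over the start and read 40.0, 43.2 and 41.7 TPM under normal water and 55.6, 58.3 and 60.7 TPM under severe drought, without overlap.

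Each of the 5 most abundant transcripts under normal water fell in both droughts, in severe drought also without replicate 3. Normal-water RNA is part of both comparisons, so this choice favours a fall and nothing is read from the shared direction. Of all tested genes 18.9% fell in moderate and 20.6% in severe drought. LOC_Os02g52260, whose moderate drought call (-0.53) was lost under quantile normalization (-0.34), led them with 674, 677 and 714 TPM under normal water, 449, 490.3 and 495 TPM in moderate and 372, 433 and 289 TPM in severe drought. LOC_Os07g07540 read 413, 422 and 403 TPM, then 194, 174 and 209 TPM, then 158, 183 and 120 TPM. LOC_Os09g29070 fell by 1.44 in moderate drought, but a model on the other strand overlaps it, and without stated strand-specific counting the reads of both cannot be told apart. LOC_Os09g15810 and LOC_Os06g43800, described above, complete the 5. Over all 282 genes, 16 overlap a model on the opposite strand and 2 one on the same strand.

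In the authors' deposited severe drought table, 51 of the 287 regions (17.8%) overlapped a listed region by at least 1 base, which is 5.76% of the 886 regions listed there. Both tables share the normal-water libraries, so their values are given side by side and no agreement is drawn from them. That table also lists only differences of at least 1 at an FDR of at most 0.0499, and a region with no overlapping entry is not shown to be unchanged. The 51 regions had a median deposited difference of -1.35 in moderate and -1.29 in severe drought, with a lowest value of -3.69 in severe drought at LOC_Os09g27070. RNA of these 51 genes fell at 28 and rose at 6 in severe drought, and of the 223 tested genes without an overlapping region it fell at 117 and rose at 21, beside 20.6% and 42.1% of all tested genes. Without replicate 3 of severe drought it fell at 28 and rose at 7 of the 51, and fell at 123 and rose at 23 of the 223, beside 22.6% and 44.4%.

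Of the 10 regions of largest loss, 2 overlapped an entry of the deposited severe drought table. At LOC_Os03g14915, a region sharing 478 bases was listed at 7.28 under normal water and 5.78 under severe drought, a deposited difference of -1.5 (FDR 0.000478) beside -7.48 in moderate drought. The RNA log2 difference of that gene, severe minus moderate drought, was -0.04 ± 0.21 (adjusted p = 0.952), and -0.18 ± 0.21 (adjusted p = 0.755) without replicate 3 of severe drought. At LOC_Os08g09840, a region sharing 183 bases was listed at a deposited difference of -1.74 beside -4.66 in moderate drought.

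The osbzip46 samples were not used by the rule. In the authors' deposited table of regions compared between osbzip46 mutant and wild type under drought, 5 of the 522 regions overlapped a losing start-proximal region. All 5 were listed as higher in the mutant, as were 432 of the 522. At LOC_Os06g45440 the deposited log2 level was 1.5 in wild type and 5.91 in the mutant, a difference of 4.41 at an FDR of 0.0062. It is among the 9 regions of that table at an FDR under 0.05. At the other 4 regions the wild-type level was 4.16 to 4.87. In the mutant the other 4 were at 5.29 to 6.18, so LOC_Os06g45440 stood apart in its wild-type level alone. The overlapping LOC_Os06g45440 region was listed at 5.36 in moderate drought, in the separate Zhonghua11 comparison. Whether levels of both comparisons share a scale was not tested, nor was the reason for the low wild-type value. Deposited differences at the other 4 were 1.13 at LOC_Os11g08090, 1.18 at LOC_Os10g33350, 1.75 at LOC_Os03g17040 and 1.05 at LOC_Os01g09740, with FDRs between 0.418 and 0.896. RNA of LOC_Os06g45440 in the Zhonghua11 libraries was 45.3, 43.2 and 45.4 TPM under normal water and, in moderate drought, 34.2, 31.9 and 35.9 TPM, a fall of 0.39 ± 0.07 on the log2 scale (adjusted p = 0.00212).

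The authors' deposited table of genes with lower H2Bub1 in the mutant holds 1265 genes, all at a log2 fold change of -1.0 or less. Of the 282 genes, 5 (1.77%) are among them. RNA values cover 55986 genes, so this overlap lies near the share of all genes and nothing is read from it. The deposited fold changes were -1.60 at LOC_Os03g17440, -1.02 at LOC_Os04g14140, -1.32 at LOC_Os05g30870, -1.32 at LOC_Os08g01274, and -1.40 and -1.09 in both entries of LOC_Os10g35010. For these entries the authors list an unadjusted p-value and no FDR. None of the 5 is entered as an OsbZIP46 target, where 217 of the 1265 genes (17.2%) are. That table also carries an expression change, drought against normal in wild type, without naming its samples. At LOC_Os10g35010 the authors' deposited expression change is -0.98, whereas the Zhonghua11 libraries gave 0.81 ± 0.12 in moderate drought. At LOC_Os03g17440 it is 0.97 in the authors' deposited table, and 0.10 ± 0.09 in these libraries.

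Of 46 genes listed for abscisic acid signalling and synthesis, H2B ubiquitination and drought effectors, 0 were nearest to a losing start-proximal region. Among the 55986 genes with RNA values that share was 0.504%, so a count of 0 among 46 lies near it and nothing is read from it. In the whole deposited moderate drought table, 4 of them were nearest to a region, 3 of these to a gaining one. That table holds 1395 regions beside 55986 genes with RNA values. The list was chosen with earlier results known, and nothing is read from these small counts.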

How the data were processed

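The analysis covers rice Zhonghua11 H2Bub1 regions and RNA. Per the file headers, the deposited RNA tables give TPM, FPKM and coverage per gene and library. TPM was used, with FPKM as an alternative and coverage (a signal of mean depth, per the file headers) only to gauge the aligned bases. The deposited H2Bub1 tables give a log2 concentration per condition with replicates combined, a p-value and an FDR per region. The submitters' processing notes name Bowtie2 2.3.4, MACS2 2.1.1, HISAT2 2.0.5 and DESeq2 1.20.0 without roles. None of these sources states a genome build.

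From these, log2(TPM + 1) was fitted, for genes reaching 1 TPM in 3 or more of 9 libraries, in one limma 3.58.1 model (R 4.3.3, trend and robust settings, two-sided, Benjamini-Hochberg adjusted over 20642 genes, threshold 0.05). A fold change on this scale understates that of low genes. TPM keep no read counts, so no counting interval is given. Repeated entries of a gene ID were summed. The fit was also run on simulated data with the spread of the normal-water libraries and few genes changed. That run did not mimic the broad drought changes or replicate 3 of severe drought. Deposited H2Bub1 values were copied, and overlaps counted from 1 shared base. Region tables have no replicates, so H2Bub1 was not retested.

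Members and gene lists were chosen with earlier results of these data known. Genes named are the 10 largest H2Bub1 losses, 3 regions on each side of the threshold, the 8 largest RNA rises and falls in moderate and 4 further in severe drought (past the threshold, at least 5 TPM in the higher condition, no overlap between libraries), the 5 most abundant, those in a mutant table, and those with 2 regions, all 5 of which tied. The RefSeq table paired 0 of the 282 gene IDs with a symbol, so genes are given by ID, without roles, and no sequence or motif is shown.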

Additional observations from a re-analysis of the deposited data

How the results depend on the processing

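Alternatives were another pseudocount, no filter, FPKM, other scaling, fits of 6 libraries, plain moderation, a replicate block, stricter regions and each library left out. The number of genes called in severe against moderate drought was 0 in all of them. Scaling moved the split. With quantile normalization 11 genes rose in moderate and 7 in severe drought, beside 27.6% and 28.6% of all tested genes, and the medians were -0.51 and -0.61. With median-of-ratios scaling 11 and 10 rose, beside 27.8% and 30.1%, with medians of -0.52 and -0.59. Of the 25 tested genes whose region covers the start, 16 were called in moderate drought (2 higher, 14 lower, median -0.44). In severe drought 17 were called (1 higher, 16 lower, median -0.58). Of all tested genes 58.3% were called in moderate drought (39.4% higher, 18.9% lower) and 62.7% in severe drought (42.1% higher, 20.6% lower). An overlap of at least 50% of each region left 3 regions shared with the mutant region table.

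Leaving out 1 library gave 132 to 186 genes called in moderate drought (20 to 37 higher, 110 to 149 lower, medians -0.33 to -0.28) and 146 to 181 in severe drought (17 to 30 higher, 125 to 151 lower, medians -0.40 to -0.31). In the same fits, of all tested genes 48.4% to 69.6% were called in moderate (33.4% to 46.5% higher, 14.5% to 23.1% lower) and 52.6% to 67.1% in severe drought (36.1% to 44.4% higher, 16.1% to 22.6% lower). The highest counts in both droughts came without replicate 3 of severe drought, and the 17 came without replicate 1 of normal water. The causes were not tested. The rise of LOC_Os02g20280 in moderate drought (0.21) turned to -0.0205 with median-of-ratios scaling.

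Replicate numbers gave no clear sign of pairing: deviations of same-numbered libraries from their group means correlated between -0.257 and 0.143. With 3 libraries a group, this check cannot rule pairing out. With the replicate block 148 genes were called in moderate drought (25 higher, 123 lower) and 165 in severe drought (24 higher, 141 lower), beside 38.6% higher and 18.5% lower, and 41.3% higher and 20.1% lower, of all tested genes. The search for promoter motifs was not run.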
